A study of Mus musculus with 2 samples.

Results

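The forkhead (Fox) and SOX genes were taken as every protein-coding mouse gene whose symbol is Fox with a letter from a to s and a number, or Sox with a number. The rule found 63 genes, 44 forkhead and 19 SOX, among 21883 protein-coding genes of the RefSeq table for GRCm38.p6 (mm10). A peak belonged to a gene when its centre lay in the gene or within 50 kb of it, and it was given to the nearest of the 63. In all, 103 of 22485 listed peaks were so placed.

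Both families are DNA-binding transcription factors. Forkhead proteins bind through a winged-helix domain, and most FOXO members leave the nucleus when insulin signalling is active. SOX proteins bind through an HMG box that bends DNA and set the fate of many progenitors, among them cartilage, neural crest and endothelium. In fat, Foxo1, Foxa2 and Sox9 are known to restrain the differentiation of precursors in mice, Foxp1 restrains beige fat, and Foxa3 has been tied to the action of glucocorticoids.

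The data are ATAC-seq, in which a transposase marks accessible DNA. The groups were PDGFRα+ (also labelled CD140+) adipose progenitors and CD137+ adipose progenitors, both of strain C57BL/6, both isolated by magnetic sorting from SAT or VAT, differentiated with an adipogenic cocktail and treated with dexamethasone at 1 µM. Each group had 1 library, so no difference here can be set against a spread between replicates, and no p-value was computed. The labels name neither the age and sex of the mice nor the depot behind each group, and their extraction text speaks of embryonic cells and a zona pellucida, which do not belong to fat. No group without dexamethasone was analysed here.

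The authors deposited a list of unique peaks per library, 8002 for PDGFRα and 14483 for CD137, without height or read number. Depth is therefore unknown. A list of unique peaks leaves out sites that both groups share, so a count of peaks is not a level of accessibility or of expression, and the labelled cell type cannot be checked from markers that have no listed peak.

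Among the Fox and SOX genes with an entry in the RefSeq promoter table, listed peaks reached a transcription start at Sox13 and Foxe3, both in the PDGFRα list. Starts of genes without an entry, Sox7 among them, were not checked. Of the 41 Fox and SOX genes with an entry in the RefSeq promoter table (250 bases before to 50 after a start), 2 (4.88%) were overlapped by a PDGFRα peak and 0 by a CD137 peak. Over the 17491 protein-coding genes of that table, 4.75% had a listed peak at a start, 1.77% a PDGFRα peak only and 2.93% a CD137 peak only, so counts this small say little about the families. The 250 bases before each of these starts are shown, since they are the only Fox and SOX promoters of the table that a listed peak touches. They are read 5′ to 3′ on the minus strand from the RefSeq table of build GRCm38.p6, and capitals mark CG dinucleotides, the sites of DNA methylation.
Sox13, chr1:133424213-133424462: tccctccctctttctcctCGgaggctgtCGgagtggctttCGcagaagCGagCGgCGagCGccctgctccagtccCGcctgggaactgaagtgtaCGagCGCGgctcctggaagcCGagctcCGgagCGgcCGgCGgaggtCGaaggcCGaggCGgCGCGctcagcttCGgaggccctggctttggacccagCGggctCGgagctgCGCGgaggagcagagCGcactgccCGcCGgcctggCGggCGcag
Foxe3, chr4:114926068-114926317: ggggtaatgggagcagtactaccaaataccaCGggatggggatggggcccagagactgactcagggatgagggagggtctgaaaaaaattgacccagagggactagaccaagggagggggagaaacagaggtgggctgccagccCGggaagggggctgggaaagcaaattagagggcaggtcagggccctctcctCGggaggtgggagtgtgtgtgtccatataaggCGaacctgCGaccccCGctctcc

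The Sox13 stretch held 31 CG dinucleotides and 72.4% G or C, and the PDGFRα peak (133422605 to 133424618) covered all 250 bases. The RefSeq span of Sox13 reaches 133424459, so most of this stretch lies inside the gene span, before the start listed in the promoter table. The Foxe3 stretch held 6 CG dinucleotides and 60.0% G or C, and its PDGFRα peak (114925047 to 114926110) covered 43 of the 250 bases, those next to the start. Neither stretch held the forkhead motif TGTTTAC, the SOX motifs ACAATG or ACAAAG, the glucocorticoid core AGAACA or the full glucocorticoid response element, in which that core is repeated in reverse after a spacer, or the TEAD motif GGAATG, searched on both strands. Across the 51 promoters of the 41 genes, TGTTTAC stood in 2 (3.92%, against 3.65% of all 32851 promoters of the table), those of Foxa1 and Sox12. ACAAAG stood in 15 (29.4%, against 18.7%), 5 of which are alternative starts of Sox6, and ACAATG in 5 (9.80%, against 12.6%). GGAATG stood in 8 (15.7%, against 14.7%), AGAACA in 6 (11.8%, against 19.0%) and the full glucocorticoid element in 0, against 3 of all promoters. A match is only a description of letters, and each full element also counts as an AGAACA match.

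The PDGFRα list gave 47 of the 103 peaks at Fox and SOX genes and the CD137 list gave 56. The PDGFRα share was 45.6% (exact 95% interval 35.8 to 55.7%, counting error only, as for all intervals here), against 38.0% of the other 16720 peaks that met the same distance rule at any protein-coding gene. The difference was 7.67 percentage points, with a Newcombe 95% interval of -1.65 to 17.3 that includes 0. Peaks at forkhead genes numbered 31 in the PDGFRα list and 43 in the CD137 list, and peaks at SOX genes 16 and 13. The share was 41.9% for forkhead and 55.2% for SOX genes, a difference of -13.3 points for forkhead minus SOX, again with an interval that includes 0 (-32.8 to 7.69). The 103 peaks are not independent, since several lie in the same gene.

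**Figure D1:**
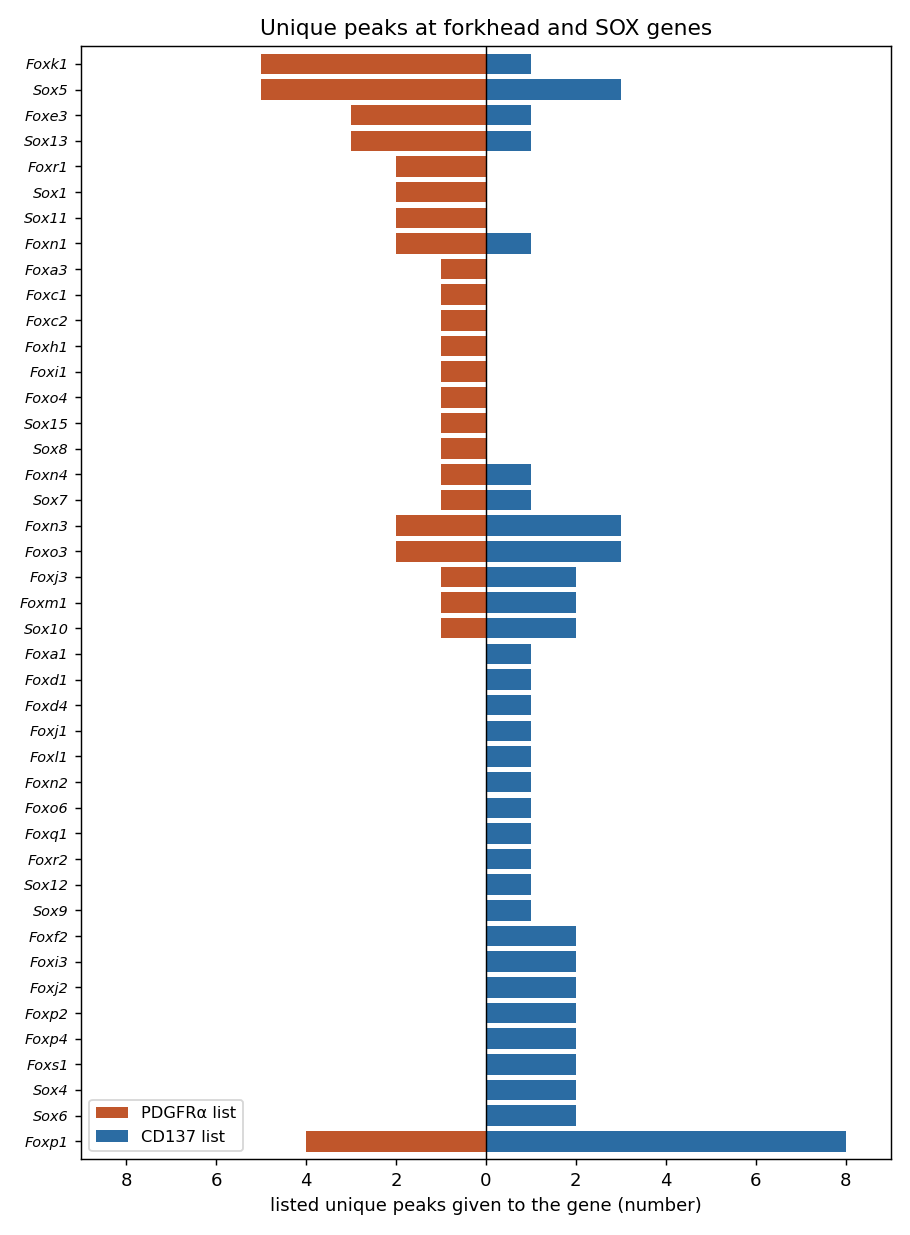
Listed unique peaks at forkhead and SOX genes that had any, with PDGFRα peaks to the left and CD137 peaks to the right of 0, ordered by the difference between the lists. Foxk1 (5 PDGFRα and 1 CD137) and Foxp1 (4 and 8) stand at the ends, and most genes had 1 or 2 peaks.

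By genes, 12 of the 63 had PDGFRα peaks only, 19 had CD137 peaks only, 13 had both and 19 had none. This order turned with lists of equal length, where the CD137 list was reduced to its 8002 widest peaks: 15 genes then had PDGFRα peaks only and 8 had CD137 peaks only. Within 5 kb it turned as well, at 7 and 5 genes. The cut by itself raises the PDGFRα share. Over all peaks within 50 kb of any protein-coding gene that share was 38.0% with the full lists and 51.7% with equal lists. Neither setting was counted by gene over all protein-coding genes, so the turn cannot be read as a trait of Fox and SOX genes. Only 11 genes had 3 or more peaks. With every gene given its own 50 kb window, so that a peak can count for more than 1 gene, 14 had PDGFRα peaks only (22.2%), 18 CD137 peaks only (28.6%) and 14 both (22.2%), in all 46 of 63 (73.0%). Over all protein-coding genes the same rule gave 15.6%, 24.7% and 24.8%, in all 65.1%. Fox and SOX genes are short, with a median span of 4.80 kb against 17.2 kb for all protein-coding genes, and a long gene catches more peaks. Among the 45 Fox and SOX genes with a span under 20 kb, 14 had PDGFRα peaks only (31.1%, exact interval 18.2 to 46.7%), against 16.0% of the 11845 genes of that span. CD137 peaks only were at 12 of the 45 (26.7%, 14.6 to 41.9%), against 22.9%, and both at 5 (11.1%, 3.71 to 24.1%), against 16.6%. In all, 31 of the 45 (68.9%, 53.4 to 81.8%) had a listed peak, against 55.4%. These intervals treat neighbouring genes as separate, although 5 peaks lay within 50 kb of more than 1 of the 63 genes.

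Of the other transcription factor families set beside them, the 13 T-box genes had 3 PDGFRα and 14 CD137 peaks and the 39 Hox genes had 7 and 16. The PDGFRα share at Fox and SOX genes was 28.0 points above that at T-box genes (2.82 to 42.9) and 15.2 points above that at Hox genes (-7.25 to 32.9). The T-box interval included 0 under 5 other settings, which are given with the processing.

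**Figure D2:**
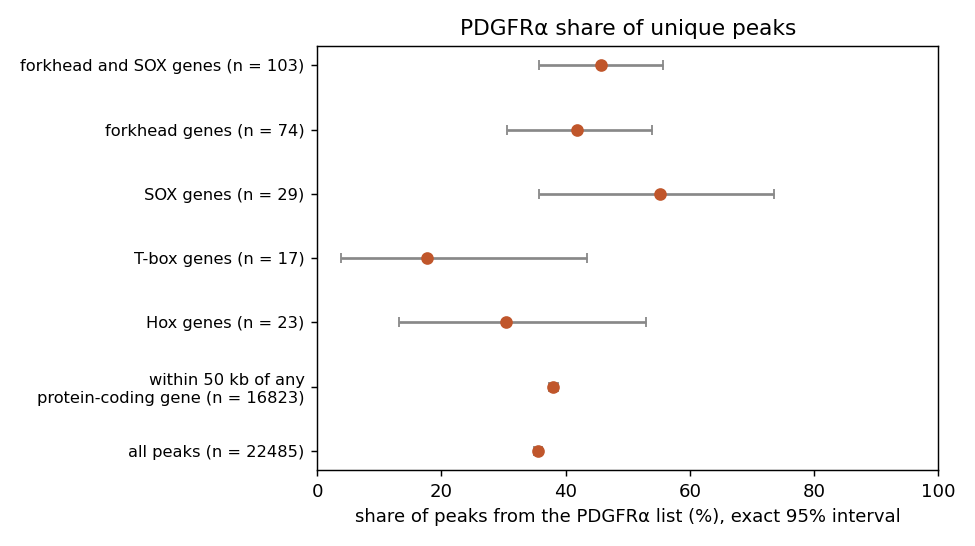
Share of unique peaks that came from the PDGFRα list, as points with exact 95% intervals that cover counting error only. The 103 peaks at forkhead and SOX genes gave 45.6%, and their interval includes the 38.0% found within 50 kb of any protein-coding gene.

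The FOXK and FOXE genes with peaks had more of them in the PDGFRα list. Foxk1, which in mice represses autophagy genes and raises glycolysis, had 5 PDGFRα peaks and 1 CD137 peak. Of the PDGFRα peaks, 2 lay in exons near the higher-coordinate end of the gene (chr5:142451227-142452367 and chr5:142456882-142458317), 2 lay 20.9 and 45.9 kb away on the lower-coordinate side and 1 lay 17.1 kb away on the other side, next to Ap5z1. The CD137 peak (chr5:142412665-142414384) was in an intron, with PDGFRα peaks on either side of it. Within 100 kb, Foxk1 had 5 PDGFRα and 4 CD137 peaks, and within 5 kb 2 and 1. Foxk2, its paralogue, had no listed peak. Foxe3, a lens factor, had 3 PDGFRα peaks, the one at its start and others 9.15 and 21.5 kb upstream, and 1 CD137 peak 33.6 kb upstream beside Cmpk1. The 3 PDGFRα peaks were also within 50 kb of Foxd2.

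The FOXP genes had 4 PDGFRα and 12 CD137 peaks. Foxp1, a repressor that restrains beige fat formation in mice, had 4 PDGFRα and 8 CD137 peaks, the most of any Fox or SOX gene, and all 12 were in introns of a gene of 597 kb. Peaks of both lists were interspersed along the gene, with 5 changes of list among the 12 peaks in order of position. The closest pair of opposite peaks was 1.21 kb apart, PDGFRα at chr6:99143136-99144377 and CD137 at chr6:99140526-99141928. Foxp2 had 0 PDGFRα and 2 CD137 peaks, and Foxp4 had 0 and 2, of which 1 was in an exon of Foxp4 (chr17:47880774-47882469). Foxp3, the factor of regulatory T cells, had none.

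The FOXO genes, which insulin signalling restrains, had 3 PDGFRα and 4 CD137 peaks. Foxo1 had no listed peak in either list. Foxo3, a stress-resistance factor of the same group, had 2 PDGFRα and 3 CD137 peaks. The CD137 peaks were in intron sequence (chr10:42211111-42212443 and chr10:42250562-42251907) and 10.8 kb past the lower-coordinate end, whereas both PDGFRα peaks were outside the gene, 17.5 kb upstream of the start (chr10:42293119-42295184) and 37.4 kb past the other end. Foxo4 had 1 PDGFRα peak, classed exon and lying in Med12, and Foxo6 had 1 CD137 peak 37.2 kb away.

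The FOXC, FOXF and FOXQ genes and Foxl1 lie in 2 clusters. On chromosome 8, Foxc2, which promotes a brown-like programme when overexpressed in mouse fat, had 1 PDGFRα peak (chr8:121112529-121114093) centred 2.86 kb from the gene on its lower-coordinate side, and no CD137 peak. That peak was also within 50 kb of Foxf1 and Foxl1, factors of gut and lung mesenchyme. Foxl1 had 1 CD137 peak 40.1 kb away, and Foxf1 had no peak for which it was the nearest of the 63. On chromosome 13, Foxf2 had 2 CD137 peaks, 7.13 and 25.9 kb upstream, and Foxq1 had 1 CD137 peak 6.71 kb away. Foxc1, at the far end of this cluster, had 1 PDGFRα peak upstream of its start (chr13:31792084-31793266). In both clusters the peak given to the FOXC gene within 50 kb came from the PDGFRα list. The peaks given to its FOXF, FOXL and FOXQ neighbours came from the CD137 list. This rests on 6 peaks and was noticed after their values were seen. Within 100 kb, Foxc1 had 1 PDGFRα and 1 CD137 peak, and Foxc2 had 1 and 0.

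**Figure D3:**
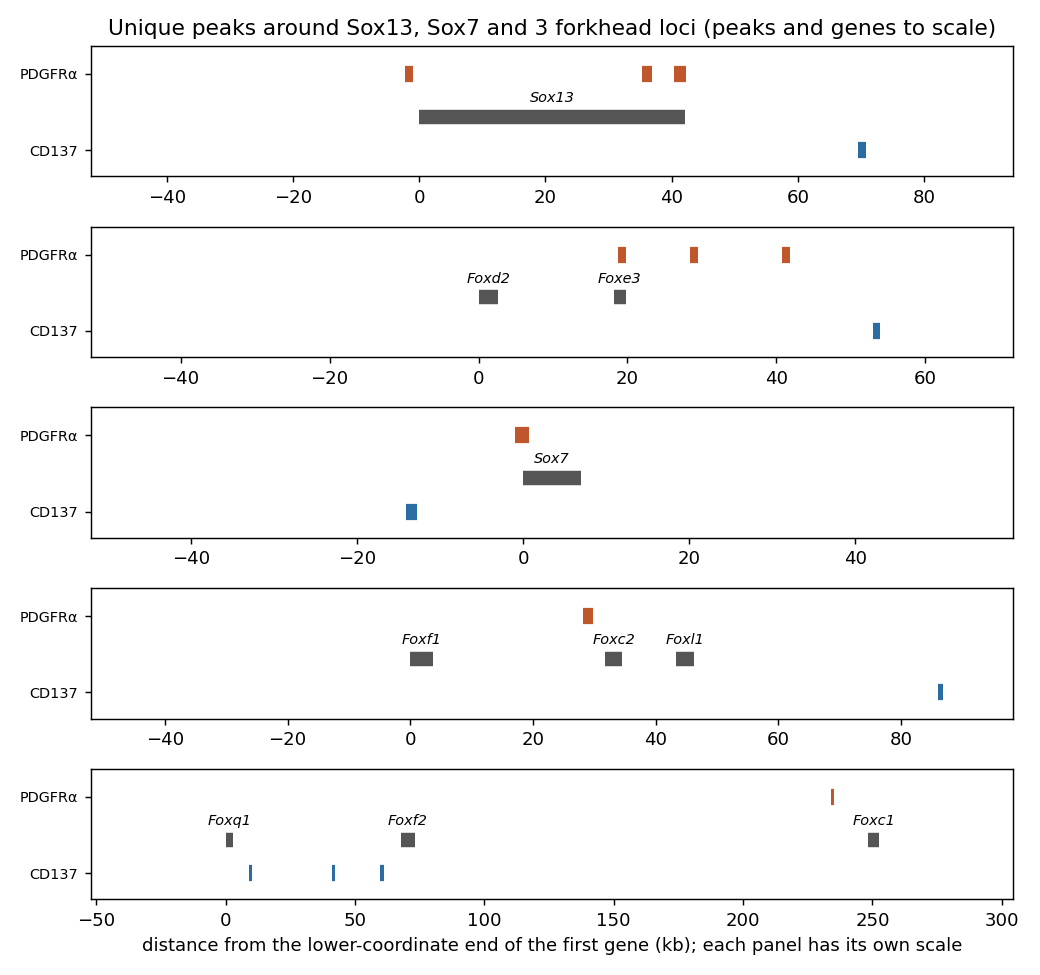
Peaks of the PDGFRα list (upper bars) and CD137 list (lower bars) around 5 loci, with genes as grey bars and distance in kb from the lower-coordinate end of the first gene. PDGFRα peaks lie over an end of Sox13, Foxe3 and Sox7, and in the clusters on chromosomes 8 and 13 the PDGFRα peak lies closest to Foxc2 and Foxc1.

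The FOXA genes had 1 PDGFRα and 1 CD137 peak. Foxa3 had 1 PDGFRα peak (chr7:19011717-19012833) centred 1.01 kb past its end and 11.3 kb downstream of its start. Foxa1, a pioneer factor of endoderm and breast, had 1 CD137 peak 28.2 kb away in Ttc6, and Foxa2 had none. FOXN genes had 5 PDGFRα and 6 CD137 peaks. Foxn3, a repressor linked to glucose metabolism in liver, had 2 PDGFRα and 3 CD137 peaks, and an opposite pair lay 3.25 kb apart (PDGFRα at chr12:99356351-99357687, CD137 at chr12:99351318-99353104). Foxn1, the thymus epithelial factor, had 2 and 1, Foxn4 had 1 and 1 and Foxn2 had 0 and 1, mostly at or near other genes.

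The remaining forkhead genes had few peaks. FOXJ genes had 1 PDGFRα and 5 CD137 peaks. The PDGFRα peak (chr4:119534645-119536127) was 4.28 kb upstream of the start of Foxj3, in the span of Frg2f1. Foxj3 also had 2 CD137 peaks, Foxj2 had 2 and Foxj1, the factor of motile cilia, had 1, and all 5 were 17.8 to 46.8 kb away, with another gene nearer. Foxm1, which drives mitotic genes, had 1 PDGFRα and 2 CD137 peaks, each inside another gene. Foxr1 had 2 PDGFRα peaks, inside the spans of Upk2 and Bcl9l, and no CD137 peak. Foxh1, the partner of SMAD proteins in Nodal signalling, and Foxi1 had 1 PDGFRα peak each, that of Foxh1 in Gpt. Foxs1 had 2 CD137 peaks, with Mylk2 and Dusp15 nearer, and Foxi3 had 2, with Tex37 nearer to both. Foxd1, Foxd4 and Foxr2 had 1 CD137 peak each, that of Foxr2 in Rragb. Foxb1, Foxb2, Foxd2, Foxd3, Foxe1, Foxi2 and Foxl2 had no peak given to them.

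**Figure D4:**
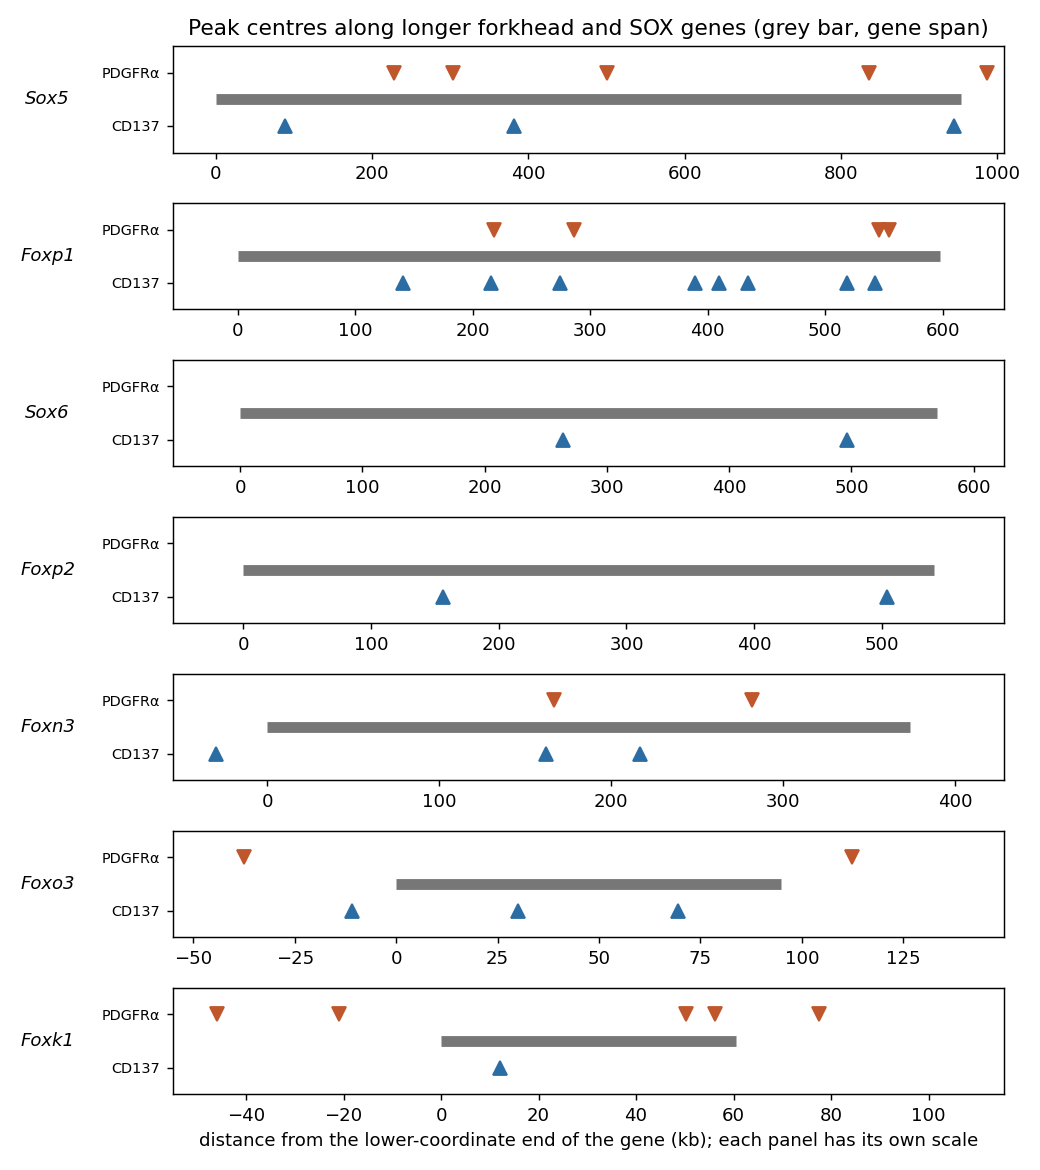
Centres of listed peaks along 7 longer genes, PDGFRα above and CD137 below the grey gene span, in kb from the lower-coordinate end. Peaks of both lists are interspersed along Foxp1 and Sox5, Sox6 and Foxp2 carry CD137 peaks only, and at Foxk1 the single CD137 peak lies between PDGFRα peaks.

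The SOXD genes carried 8 PDGFRα and 6 CD137 peaks, nearly as many as the other SOX genes together (8 and 7). SOX5 and SOX6 lack an activation domain of their own and assist SOX9 at cartilage genes. Sox5 had 5 PDGFRα and 3 CD137 peaks over a span of 954 kb, with 5 changes of list along it and a closest opposite pair 41.0 kb apart. Sox6, which supports fat cell formation in mice, had 0 PDGFRα and 2 CD137 peaks, both in introns (chr7:115734077-115735098 and chr7:115966852-115967881). Sox13 had 3 PDGFRα peaks, at its start, in an intron 5.80 kb downstream (chr1:133417608-133419215) and 1.65 kb past its other end, where Etnk2 was nearer, and 1 CD137 peak 28.2 kb upstream. Sox5 and Sox13 thus had more PDGFRα peaks and Sox6 had CD137 peaks only, on counts too small to compare the genes. With lists of equal length, Sox6 had no peak of either list.

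The SOXE genes had 2 PDGFRα and 3 CD137 peaks. Sox9, which preadipocytes lose as they differentiate, had 1 CD137 peak 46.9 kb away (chr11:112833769-112835514), and no PDGFRα peak. Sox8, needed for normal fat mass in mice, had 1 PDGFRα peak 3428 bp wide at 25.2 kb (chr17:25538962-25542390), against a median width of 1219 bp for PDGFRα and 1210 bp for CD137 peaks at Fox and SOX genes. Sox10, the neural crest and Schwann cell factor, had 1 and 2, all in Micall1 or Polr2f. Among SOXC genes of undifferentiated cells, Sox11 had 2 PDGFRα peaks, 40.0 and 49.2 kb away, Sox4 had 2 CD137 peaks, 26.8 and 31.0 kb away, and Sox12 had 1 CD137 peak. Each of these SOXC genes thus had peaks of 1 list, all outside the gene, but with only 1 or 2 peaks per gene. By own windows, 15.6% of all protein-coding genes had PDGFRα peaks only and 24.7% CD137 peaks only. Within 100 kb, Sox4 had 1 PDGFRα and 4 CD137 peaks.

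Of the SOXF genes, which act in endothelium, Sox7 had a PDGFRα peak over its lower-coordinate end (chr14:63942710-63944440) and a CD137 peak 13.4 kb away, and Sox17 and Sox18 had none. Sox1, a neural factor, had 2 PDGFRα peaks, and Sox15 had 1, in Shbg. Sox2, Sox3, Sox14, Sox21 and Sox30 had no listed peak.

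Most peaks lay outside the Fox and SOX genes. Centres inside a gene numbered 16 in the PDGFRα list and 22 in the CD137 list, at 12 genes, and 27 of these 38 were in the 5 genes of 100 kb or more (Sox5, Foxp1, Sox6, Foxp2 and Foxn3). Outside the genes, 5 PDGFRα and 0 CD137 peaks were within 5 kb, 7 and 12 between 5 and 20 kb, and 19 and 22 between 20 and 50 kb. For 34 of the 103 peaks another protein-coding gene was nearer, which was so for 14 of 47 PDGFRα and 20 of 56 CD137 peaks. The 5 PDGFRα peaks within 5 kb belonged to Foxa3, Foxc2, Foxj3, Sox7 and Sox13, with Frg2f1 nearer at Foxj3 and Etnk2 nearer at Sox13. Peaks were not counted by distance over all protein-coding genes, so this split cannot be read as a trait of Fox and SOX genes.

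By the authors' place classes, 11 PDGFRα peaks (23.4%) and 4 CD137 peaks (7.14%) were up5k, a difference of 16.3 points (2.38 to 30.7), where the whole lists had 11.1% and 8.64%. Of these, 7 PDGFRα and 0 CD137 peaks lay in or within 5 kb of the Fox or SOX gene itself, a count not made over all protein-coding genes. Introns held 11 PDGFRα (23.4%) and 22 CD137 peaks (39.3%), a difference of -15.9 points (-32.2 to 2.23), exons 5 and 8, down5k 5 and 5, and intergenic space 15 and 17.

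The class up5k did not mean upstream in these files. Of 431 up5k peaks outside a gene of known strand, with no other gene within 5 kb, 384 (89.1%) lay on the lower-coordinate side of the gene and 184 (42.7%) were upstream of it. Of 383 down5k peaks, 381 (99.5%) lay on the higher-coordinate side, and 168 (43.9%) were upstream. At Sox13, on the minus strand, the peak over the start was classed down5k and the peak past the other end up5k. The up5k peak at Foxa3, also on the minus strand, was past the end of the gene, whereas those at Foxj3 and Foxe3 were upstream of the start and at it. The up5k counts therefore cannot be read as counts of promoter peaks. Measured from the nearest RefSeq start, 3 of 34 PDGFRα and 0 of 40 CD137 peaks were centred within 5 kb of it. On the strand of the gene, 18 of the 34 and 19 of the 40 lay upstream of that start. A listed start can lie inside a gene, and some of these peaks, as at Sox5 and Foxp1, were in the gene body. These distances were not counted over all protein-coding genes.

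The genes around these factors had peaks of both lists. Counts here give every gene its own 50 kb window, by which 15.6% of all protein-coding genes had PDGFRα peaks only, 24.7% CD137 peaks only and 24.8% both. Summed over all protein-coding genes there were 13249 PDGFRα and 19367 CD137 peaks, a PDGFRα share of 40.6%, with a peak counted once for each gene it is near. Of 20 genes through which insulin and growth factors control FOXO, 5 had PDGFRα peaks only, 4 CD137 peaks only and 9 both (45.0%), with 19 PDGFRα and 37 CD137 peaks in sum, a PDGFRα share of 33.9%. Their median span was 68.5 kb, against the 17.2 kb of all protein-coding genes. Sgk1, a glucocorticoid-induced kinase that phosphorylates FOXO3, had 1 PDGFRα and 6 CD137 peaks. Of 20 known FOXO targets, 3 had PDGFRα peaks only, 5 CD137 peaks only (25.0%) and 7 both (35.0%), with 11 PDGFRα and 21 CD137 peaks, a share of 34.4%. The DNA damage gene Gadd45a had 0 PDGFRα and 4 CD137 peaks, and Pnpla2, which encodes the fat lipase ATGL, had none.

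Of 15 cartilage targets of SOX5, SOX6 and SOX9, 2 had PDGFRα peaks only (13.3%), 4 CD137 peaks only (26.7%) and 7 both (46.7%), with 12 PDGFRα and 18 CD137 peaks. The PDGFRα share of 40.0% was close to the 40.6% of all protein-coding genes. Col11a2 had 2 PDGFRα and 0 CD137 peaks, and the link protein gene Hapln1 had 0 and 3. Of 18 partners and regulators of SOX factors, 2 had PDGFRα peaks only (11.1%), 2 CD137 peaks only (11.1%) and 11 both (61.1%), with 27 PDGFRα and 44 CD137 peaks, a share of 38.0%. Their median span was 97.0 kb. Nfia had 6 PDGFRα and 11 CD137 peaks and Nfib 5 and 6, genes that work beside SOX9 in glia. The median gene had 1 PDGFRα peak in 3 of the lists and 0.5 in the FOXO targets, and 1 to 2 CD137 peaks, against 0 and 1 for Fox and SOX genes and 0 and 0 for all protein-coding genes.

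Markers of cell types were counted in the same windows, to be read beside the 40.6% PDGFRα share over all protein-coding genes. The 9 endothelial markers had 9 PDGFRα and 7 CD137 peaks (56.2%), but they were split. Of them, 3 had PDGFRα peaks only, 2 had both, and 2, Pecam1 and Cldn5, had none. Tek (0 PDGFRα and 3 CD137) and Tie1 (0 and 1) had CD137 peaks only. The SOXF genes had 1 PDGFRα and 1 CD137 peak, both at Sox7. The 4 mesothelial markers had 7 PDGFRα and 2 CD137 peaks (77.8%), of which Wt1 alone held 5 and 0. Upk3b had 1 and 0, Lrrn4 1 and 1, and Msln 0 and 1. The share was lower for the other lists, with 2 PDGFRα and 5 CD137 peaks (28.6%) at 6 Schwann and neural crest markers and again at 5 epithelial and endoderm markers, 2 and 9 (18.2%) at 5 early embryo markers, and 0 and 3 at 5 immune markers. The 8 adipose progenitor markers had 7 and 14 (33.3%) and the 6 adipocyte markers 3 and 10 (23.1%). Pdgfra itself, the gene that names the PDGFRα group, had 0 PDGFRα and 1 CD137 unique peak. These lists are small and their shares were not tested against the 40.6%. The part of other cell types in the peaks at Fox and SOX genes was not tested.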

How the data were processed

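Each deposited list holds 1 row per peak of 1 library, with a chromosome, start, end, Ensembl gene ID and place class, per the file headers, and no score. The deposited coordinates are in mm10, which the submitters' processing notes name with CASAVA 1.8. How reads were aligned and shifted, how peaks were called and at what threshold, what made a peak unique, and whether starts count from 0 or 1, the sources used here do not state. Different depth or thresholds would change the length of either list.

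Peaks were placed by their centre on RefSeq gene spans (GRCm38.p6). Strands and starts came from the RefSeq promoter table, with an entry for 41 of 63 genes. Shares carry exact binomial intervals and differences Newcombe intervals, both at 95% and both for counting error only. Named genes were the 15 with the most peaks, those with a peak over a start, and 21 with known roles in fat or mesenchyme, and the others are given by their counts. Some genes are counted in the totals but not reported here. The genes and lists were chosen with earlier results of these data known. Assignment and motif search were tested on simulated data. Scripts ran in Python 3.11.15 with pandas 2.3.3, numpy 2.4.6 and scipy 1.17.1, and figures were drawn with matplotlib 3.10.9.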

Additional observations from a re-analysis of the deposited data

How the results depend on the processing

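No paired analysis was possible because each group is a single library, and for the same reason none was left out in turn. Leaving out Foxp1 and keeping only genes under 20 kb were chosen after the data were seen. The PDGFRα share at Fox and SOX genes was 43.9 to 48.9% in all settings but one. With the CD137 list reduced to its 8002 widest peaks it was 61.8%, where all peaks within 50 kb of a gene gave 51.7%. Genes with PDGFRα peaks only, CD137 peaks only, both, or any numbered 12, 19, 13 and 44. Within 5 kb these were 7, 5, 4 and 16. Within 20 kb, CD137 only, both and any were 12, 6 and 27, and with the gene nearest of all protein-coding genes 12, 6 and 28. Within 100 kb, 30 had both. In the wider 50% of each list, CD137 only and any were 9 and 26, and with lists of equal length PDGFRα only were 15 and CD137 only 8. PDGFRα only thus exceeded CD137 only with lists of equal length and within 5 kb, and not in the other settings where these counts were made. With lists of equal length and within 5 kb, no such counts were made over all protein-coding genes.

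The T-box difference stayed above 0, but its interval included 0 within 5 kb (23.8 points), within 20 kb (22.9), with the nearest gene of all (29.6), in the wider 50% (21.8) and when a gene counted at most once in either list (16.6). The Hox interval excluded 0 with lists of equal length (26.8 points, 2.39 to 46.5). The interval of the difference between forkhead and SOX genes included 0 in every setting run.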
